A study of Homo sapiens with 2 samples.

Results

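Shared distal acetylated sites are stretches of chromatin that carried acetylated lysine 27 of histone H3 (H3K27ac) in both libraries of the study and lay away from the ends of protein-coding genes. They were selected on measured values, as peaks of the ERG library on chromosomes 1 to 22, X and Y that overlapped a peak of the Vector library by at least 1 bp. Each had to lie more than 1 kb from both ends of every protein-coding gene record and within 500 kb of such a gene. There were 2028 such sites among 19671 peaks of the ERG library, 10.3% (exact 95% binomial interval 9.89 to 10.7). They made up 25.7% of the 7901 shared peaks on these chromosomes and 22.5% of the 8993 ERG-library peaks that were distal and near a coding gene. In the Vector library, 2092 of 9161 peaks lay under them.

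Both libraries came from F36P cells, a long-established human line of erythroid leukaemia. The ERG library came from cells transduced with MSCV-PIG-AM-ERG, a retroviral construct that overexpresses ERG, and the Vector library from cells given the empty MSCV-PIG. Both were under puromycin selection (1 µg/ml, 4 days), and 10 µg of chromatin, fixed with 1% formaldehyde and cut with micrococcal nuclease, entered each pull-down. Each group held 1 library, so every difference below compares these libraries, and no replicate check was possible. What AM stands for could not be settled, and the sources used here do not give whether the transduced cells were a pool or a single clone.

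H3K27ac is placed by the acetyltransferases p300 and CBP and removed by histone deacetylases, and it marks active enhancers and promoters. Enhancers bind transcription factors away from a gene's start and raise its transcription from there. ERG is an ETS-family transcription factor of blood stem cells, megakaryocytes and endothelium that binds such elements together with RUNX1, GATA2, TAL1, LMO2, LYL1 and FLI1, the group called the heptad. In red cell precursors GATA1, TAL1, KLF1 and their cofactors run the enhancers of globin, heme and membrane genes. The study asked how ERG holds back erythroid differentiation.

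Some of the strongest sites were starts of genes that make no protein, among them hosts of blood microRNAs. The mature microRNAs whose hairpins lay in these sites or in a host gene starting there are shown because their seeds, bases 2 to 8 in capitals, sort them into families (sequences from RefSeq, GRCh38.p14). The site at the start of MIR17HG had 320 fragments at its summit (ERG library) and 148 (Vector library). Its cluster on the plus strand of chromosome 13 held miR-17 and miR-20a with a common seed, both forms of miR-19 with another, and miR-18a and miR-92a with their own.
hsa-miR-17-5p: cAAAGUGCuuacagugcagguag
hsa-miR-20a-5p: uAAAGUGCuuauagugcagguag
hsa-miR-18a-5p: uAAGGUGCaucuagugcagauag
hsa-miR-19a-3p: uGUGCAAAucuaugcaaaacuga
hsa-miR-19b-3p: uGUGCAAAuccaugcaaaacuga
hsa-miR-92a-3p: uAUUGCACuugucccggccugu
The let-7 family came from a pair of sites. One held MIRLET7I, with 163 and 57 fragments in the ERG and Vector libraries. The other stood at the start of MIRLET7A1HG, with 96 and 44 fragments, and all these microRNAs had the seed GAGGUAG.
hsa-let-7i-5p: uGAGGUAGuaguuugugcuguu
hsa-let-7a-5p: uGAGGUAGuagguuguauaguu
hsa-let-7f-5p: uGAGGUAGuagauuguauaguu
hsa-let-7d-5p: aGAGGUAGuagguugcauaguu
The site that held MIR142, the hairpin of a microRNA pair found throughout blood cells, had 122 and 60 fragments.
hsa-miR-142-3p: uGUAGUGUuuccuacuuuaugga
hsa-miR-142-5p: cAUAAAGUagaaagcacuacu

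Start regions of such genes are shown with the ETS core GGAAG (either strand) in capitals, since ERG belongs to the family that binds it. The MIR17HG window, chr13:91347437-91347736 on the plus strand of GRCh38.p14, held 2 matches, and so did the MIR142HG window, chr17:58332471-58332770 on the minus strand. The MIR17HG site began at base 91347634, so both matches of its window lay before the acetylated site and outside it. The MIR142HG window lay whole inside its site. The stretch before the internal start of RUNX1, chr21:34888700-34888949 on the minus strand, held none, which says only that these letters are not in this window. RUNX1 and the hosts were picked after their values were seen.
MIR17HG: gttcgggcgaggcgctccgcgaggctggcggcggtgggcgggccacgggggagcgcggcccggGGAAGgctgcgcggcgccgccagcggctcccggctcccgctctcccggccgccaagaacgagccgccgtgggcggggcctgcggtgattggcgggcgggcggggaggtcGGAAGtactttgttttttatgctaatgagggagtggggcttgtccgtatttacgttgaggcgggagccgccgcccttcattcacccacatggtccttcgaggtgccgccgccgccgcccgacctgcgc
MIR142HG: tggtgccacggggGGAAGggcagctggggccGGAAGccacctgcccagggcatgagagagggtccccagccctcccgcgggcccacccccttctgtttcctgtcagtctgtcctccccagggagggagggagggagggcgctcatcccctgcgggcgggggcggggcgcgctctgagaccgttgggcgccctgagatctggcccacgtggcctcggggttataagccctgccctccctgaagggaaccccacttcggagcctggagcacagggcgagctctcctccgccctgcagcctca
RUNX1: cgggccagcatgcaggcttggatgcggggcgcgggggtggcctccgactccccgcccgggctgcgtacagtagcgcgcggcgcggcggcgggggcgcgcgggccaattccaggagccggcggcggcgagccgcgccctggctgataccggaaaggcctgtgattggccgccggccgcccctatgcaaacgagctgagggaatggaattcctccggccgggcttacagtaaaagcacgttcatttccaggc

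The unit of comparison was the number of fragments stacked at a peak's summit, which was recovered as a whole number from the authors' fold and −log10 p-value for all peaks of both lists. The lowest local background, the level of the genome at large, was 2.31 fragments (ERG library) and 1.603 (Vector library), so the ERG library was 1.44 times as deep. Intervals cover counting error only, and amplified fragments are not independent molecules. In a bulk library, more acetylated cells and more acetylation per cell cannot be told apart.

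The sites ranged from faint to very strong, and before depth scaling the ERG library had the higher and wider peak at most of them. Fragments at the summit ran from 10 to 1026 in the ERG library, with a median of 56, and from 8 to 433 in the Vector library, with a median of 27. The median width was 909 bp against 489.5 bp, and the median of the width ratio was 1.59. Width grows with depth, so this ratio holds the depth difference too. The summits lay close together, a median of 79 bp apart, and within 200 bp of each other at 74.4% of the sites against 81.1% at shared gene-end peaks. At 96.5% of the sites the ERG-library peak covered exactly 1 Vector-library peak.

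**Figure D1:**
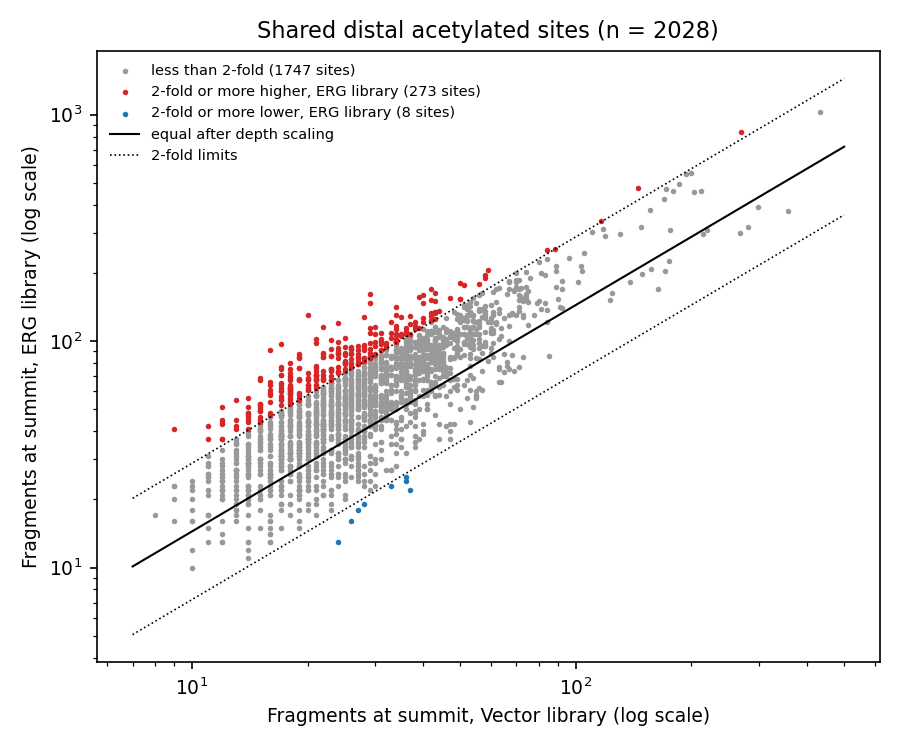
Fragments at the summit of each of the 2028 sites in the Vector library (x axis) and in the ERG library (y axis), both on log scales, with 1 point per site. The solid line marks equal levels after scaling by relative depth and the dotted lines the 2-fold limits; 273 sites lie above the upper limit and 8 below the lower one.

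At the 1 kb limit a peak just left out lay 994 bp from a gene end at CD24, with 57 and 25 fragments in the ERG and Vector libraries. A site just inside it lay 1012 bp from an end of CD84, with 56 and 24 fragments. At the 500 kb limit a row of peaks near ZNF33B straddled the limit, with a site at 499971 bp (225 and 175 fragments) and a peak at 502645 bp (289 and 240 fragments). The smallest overlap was 7 bp, at NGLY1, and the closest peak without a counterpart was 11 bp from one, at SCGB2B2.

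By the rule all sites lay within 500 kb of a coding gene, and many were at starts that a gene record's ends do not show. The median distance to a coding gene's end was 17.1 kb, with 36.3% of sites under 10 kb and 11.7% over 100 kb away. Inside coding genes lay 1150 sites, 56.7% (54.5 to 58.9). Of all sites, 465 (22.9%, 21.1 to 24.8) came within 1 kb of a listed start of a protein-coding gene, that is, an internal or alternative start. A further 412 (20.3%) lay within 1 kb of an end or listed start of a non-coding gene record, 239 of them long non-coding RNAs. The remaining 1151 (56.8%) had neither. For 99 sites on a chromosome without listed starts in the table used, the first class could not be seen, and over the other 1929 sites its share was 24.1%. So distal here means distant from the ends of coding gene records, and many of the sites were at another annotated start or end.

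Distal near-gene peaks of the ERG library that had no counterpart in the Vector library were made up differently. Of 6965 such peaks, 412 were at a listed coding start, 5.92% (5.37 to 6.50), and 5735 had no record, 82.3% (81.4 to 83.2). With 50 or more ERG-library fragments the shares at a listed coding start were 26.8% for the shared sites and 6.14% for the others. The intervals did not overlap in either case, and they compare peaks of 1 library. Shares inside genes were close, 56.7% and 58.6%.

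Genes with a site were long and often acetylated at their ends too. The sites were assigned to 1623 of 20033 protein-coding genes, 8.10%, and 1354 of these had 1 site. Their median length was 52.99 kb against 24.1 kb over all coding genes. The rule and the assignment favour long genes. A site had to lie more than 1 kb from both gene ends and went first to the gene that held it. A gene-end peak in both libraries was found at 39.1% of genes with a site and at 30.2% of all coding genes. In the ERG library alone the shares were 16.1% and 15.6%. No gene-end peak in either library was found at 717 genes with a site (44.2%), a share not counted over all coding genes.

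On the depth scale the ERG library held more fragments at the summit of most sites, a direction that depends on the scale, as the next paragraph gives. The depth-adjusted ratio of ERG-library over Vector-library fragments had a median of 1.43 (quartiles 1.13 and 1.76). It was 2 or more at 273 sites (13.5%) and 0.5 or less at 8 (0.394%), where 11.3% and 0.291% of all 7901 shared peaks passed the same limits. The rule used this contrast, so these counts are a description. Shared gene-end peaks had a median of 1.48 and shared peaks over 500 kb from a coding gene 0.985. The counting interval lay above 1 at 762 sites (37.6%) and below 1 at 26 (1.28%), beside 38.1% and 0.810% of all shared peaks, and 42.8% and 0.269% of the gene-end peaks.

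The scale decides the direction of many of these values. With the median of the gene-end peaks set to 1, which moves every log2 ratio down by 0.57, the median of the sites was 0.970. The share of sites above 1 fell from 83.2% on the depth scale to 45.8% on this one. On that scale 20 sites (0.986%) were 2-fold or more higher and 109 (5.37%) 2-fold or more lower, beside 0.797% and 3.39% of all shared peaks. Ratios below are given on the depth scale, and the order of sites does not change with it.

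**Figure D2:**
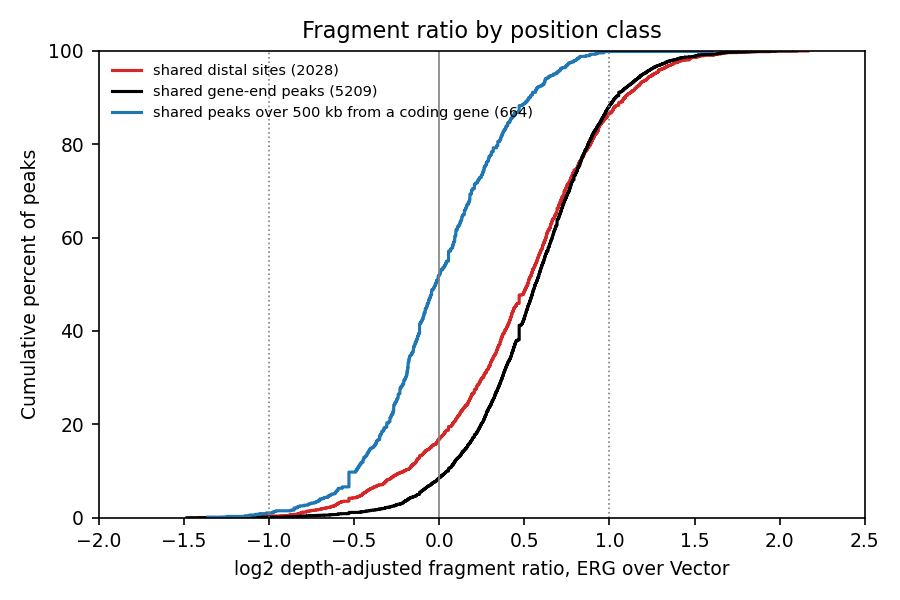
Cumulative percent of peaks (y axis) against the log2 depth-adjusted fragment ratio, ERG over Vector library (x axis), for the 2028 shared distal sites, the 5209 shared gene-end peaks and the 664 shared peaks over 500 kb from a coding gene. The distal sites have a median of 1.43 on the linear scale, the gene-end peaks 1.48 and the remote peaks 0.985, and the vertical lines mark equal levels and 2-fold.

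The wide surroundings of a site moved with its summit. The local background of the peak caller had a depth-adjusted median ratio of 1.40, and it was above 1 at 86.7% of the sites. Across the 2028 sites its log2 ratio and that of the summit had a Pearson r of 0.765 and a Spearman rho of 0.731, a description over peaks that share the same 2 libraries. The authors' deposited fold, which divides the summit by that background, therefore differed little, with a median ratio of 1.06 (quartiles 0.920 and 1.24). By this measure 9 sites were 2-fold or more higher in the ERG library and none 2-fold or more lower, beside 0.620% and 0.0253% of all shared peaks. Of the 273 sites past 2-fold in fragments, 251 had the higher fold in the ERG library, at a median of 1.36 times. The sources used here do not give whether the background came from an input library, and its part in the ratios was not tested.

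**Figure D3:**
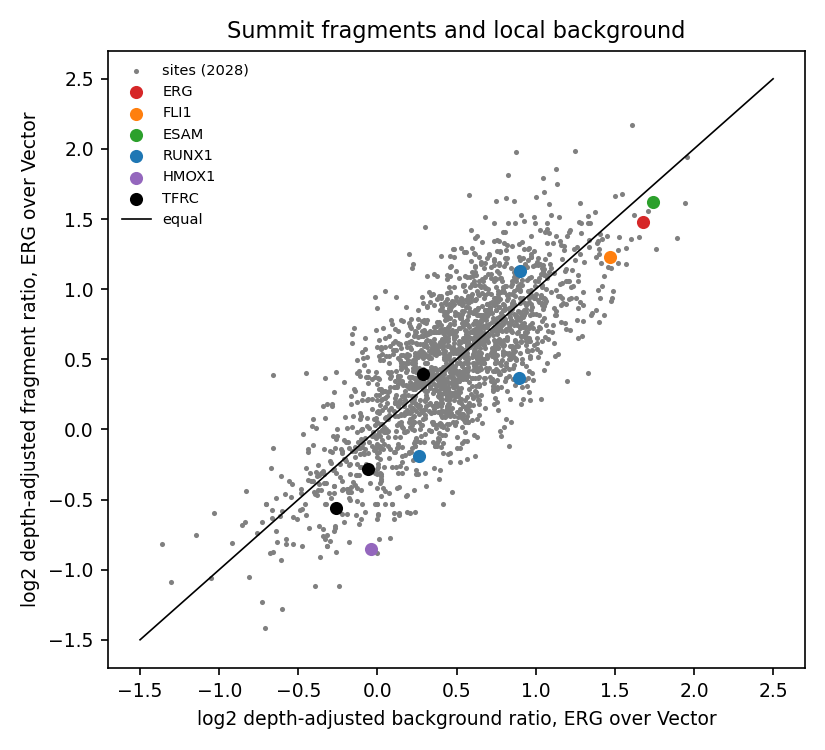
Each site's log2 depth-adjusted fragment ratio (y axis) against its log2 depth-adjusted background ratio (x axis), ERG over Vector library, with the line of equal values. The 2028 points lie along the line (Pearson r of 0.765), with the sites of ERG, FLI1 and ESAM at the upper right and that of HMOX1 below the line.

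Annotated starts and sites without a record differed somewhat in ratio. The median was 1.497 at listed coding starts, 1.51 at long non-coding RNAs and 1.34 at sites with no record. At long non-coding RNAs 20.1% of sites were 2-fold or more higher, against 11.6% at coding starts and 13.0% at sites with no record. Sites inside and between genes had medians of 1.44 and 1.43.

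Regulators of the erythroid programme were well supplied with sites, and their acetylation was nearly level between the libraries at several of the best known. Of 30 listed genes, 11 had 18 sites in all, with a median ratio of 1.28 (0.864 on the scale of the gene-end peaks and 0.946 by the deposited fold). Of these sites 11 were below the median of all sites. The share of genes, 36.7%, stands beside 8.10% of all coding genes, and the listed genes had a median length of 29.0 kb. ZFPM1 encodes FOG1, the cofactor of GATA1, and had 3 sites with 63, 43 and 41 fragments in the ERG library and 44, 34 and 28 in the Vector library. These gave ratios of 0.992, 0.876 and 1.01, equal within counting error. The adaptor LMO2, which joins GATA1 and TAL1, had a pair of sites in its gene with 61 and 58 fragments in the ERG library against 40 and 37, ratios of 1.06 and 1.09. GFI1B, a repressor needed for red cells and platelets, had a site 6.09 kb past its end with 54 and 37 fragments, ratio 1.01. Its site 9.86 kb past the end had 102 and 46 fragments, ratio 1.54 (1.07 to 2.23).

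Other erythroid regulators had higher ratios. LDB1, which bridges enhancers to promoters, had 119 and 62 fragments in the ERG and Vector libraries at an internal start, ratio 1.33 (0.970 to 1.84). CBFA2T3, a corepressor bound to TAL1 complexes, had sites 14.5 and 26.1 kb before its start, with 110 and 51 fragments in the ERG library against 53 and 28, ratios of 1.44 and 1.26. KLF3, STAT5B and MAFG each had 1 site, with ratios of 1.64, 1.59 and 1.51 whose intervals lay above 1, and IKZF1 had 22 and 12 fragments, ratio 1.27 (0.602 to 2.81). The internal start of RUNX1 was the only site of this list past 2-fold, at chr21:34888129-34890671 on hg38 with 114 and 36 fragments, ratio 2.19 (1.496 to 3.29). A second site inside RUNX1 had 52 and 28 fragments and one before its start 24 and 19, ratios of 1.29 and 0.875. The 3 sites of this gene included the lowest and the highest ratio of the list.

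Sites at the listed genes for products of the red cell were close to level between the libraries. Over 4 lists (globin, heme, iron, and red cell membrane genes) 16 of 84 genes had a site, beside 8.10% of all coding genes. Their 20 sites had a median ratio of 1.02, and 8 of the 20 were below 1, against 16.8% of all sites. Of these listed sites none was 2-fold or more higher, beside 13.5% of all sites. However, STOM, the gene of a red cell membrane protein outside the lists, had a site at 3.21. Of the 20, 4 had an interval above 1, beside 37.6% of all sites. On the scale of the gene-end peaks the median of the 20 was 0.690, by the deposited fold it was 0.978, and their surroundings had a median background ratio of 1.15. These lists were pooled after their values were seen.

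Among globin genes, the site beside the embryonic globin gene HBE1 at chr11:5275532-5275839 had 33 fragments (ERG library) and 31 (Vector library), ratio 0.737 (0.438 to 1.25). In the heme list, HMOX1, which breaks heme down, had 20 and 25 fragments at a site 8.43 kb from its end, the lowest ratio of the 4 lists at 0.554 (0.292 to 1.04). ALAS1 and UROS, enzymes of heme synthesis, had ratios of 0.887 and 0.911. SLC48A1, a heme transporter, had a pair of sites with ratios of 1.20 and 1.32. Each of these heme intervals included 1. TFRC, the transferrin receptor, had 3 sites with 43, 44 and 114 fragments in the ERG library and 44, 37 and 60 in the Vector library. Its ratios were 0.677, 0.824 and 1.32, and the list's one interval above 1 was at SLC25A28, a mitochondrial iron importer, with 110 and 46 fragments and a ratio of 1.66. In the membrane list, RHD and SEMA7A had ratios of 0.845 and 0.804, ANK1 1.02 and 1.34, and EPB41, which encodes the skeletal protein 4.1, 1.64 (1.14 to 2.38). The site nearest CD47 had the highest ratio of the list, 79 and 30 fragments, 1.82 (1.18 to 2.88).

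Cytokine signalling genes lay between. Of 24 genes, 9 (37.5%, beside 8.10% of all coding genes) had 11 sites. Their median was 1.37 on the depth scale and 0.923 on that of the gene-end peaks. None was below 1 on the depth scale, against 16.8% of all sites. SH2B3, the inhibitor LNK of the JAK2 pathway, had 119 and 37 fragments at a listed start, ratio 2.23 (1.53 to 3.31), and PIM1, a kinase gene switched on by STAT5, 100 and 36, ratio 1.92 (1.30 to 2.90). STAT3 had 109 and 49 fragments, ratio 1.54, while CSF2RB, the common beta chain of cytokine receptors, had 79 and 41, ratio 1.33 (0.904 to 1.996).

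Stem cell and ETS factor genes had sites both near level and well above 2-fold. The heptad and stem cell list had 17 sites at 10 of 30 genes (33.3%, beside 8.10% of all coding genes). The median of these sites was 1.57, though 0.962 by the deposited fold, and 6 were past 2-fold, beside 13.5% of all sites. The ETS list had 7 sites at 7 of 27 genes (25.9%), median 1.91 (0.938 by the deposited fold), with 3 past 2-fold. Both lists hold ERG, FLI1 and ETV6. The heptad and stem cell list also shares LMO2, RUNX1 and ETV6 with the erythroid regulator list. The RUNX1 site past 2-fold is thus counted in each of these 2 lists, and their medians are not from separate sites. In the ERG gene itself a site at chr21:38375745-38377820 had 169 fragments (ERG library) and 42 (Vector library), a ratio of 2.79 (1.98 to 4.01). It lay 8.48 kb from the downstream end of the gene record. Fragments from the ERG copy on the retroviral construct and from the cell's own gene cannot be told apart where they share sequence, and exon positions were not used here. The next highest was ETS1, with 42 and 11 fragments, 2.64 (1.34 to 5.70). FLI1, the closest relative of ERG, had 88 and 26 fragments at a site beside its antisense RNA SENCR, 2.34 (1.499 to 3.78).

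The remaining stem cell genes showed both kinds of site. Of the 17 sites of the heptad and stem cell list 2 were below 1. The lowest ratio, 0.811, was at a site assigned to MYC but over 50 kb from it, a gene that the cell cycle list holds too. HHEX, a homeobox factor of early blood and endothelium, had 75 and 62 fragments at a pair of sites in the ERG library and 23 and 20 in the Vector library, ratios of 2.26 and 2.15. CD34, the surface marker of blood stem cells, had 51 and 15 fragments at a site 51.7 kb before its start, ratio 2.35 (1.30 to 4.51). Its other site, 11.8 kb past its end, had 40 and 27, ratio 1.03. ETV6 had 80 and 29 fragments, ratio 1.91. The site assigned to GATA2 lay over 50 kb from it and had 34 and 15, ratio 1.57 with an interval from 0.832 to 3.10. Next to GATA2, the gene RPN1 was assigned 4 sites, chosen after their values were seen, of which that at chr3:128615925-128617645 had 163 and 43 fragments, ratio 2.62 (1.87 to 3.77). ELF1, ELF2 and ETS2, other ETS factors, had ratios of 1.27, 1.34 and 1.57.

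The ERG and FLI1 sites stood differently in the deposited fold. There it was slightly lower in the ERG library, 5.83 against 6.06 and 4.15 against 4.42. The local background was 28.2 fragments against 6.10 at ERG and 20.5 against 5.11 at FLI1, ERG against Vector library. Their summits and wide surroundings were thus both higher.

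Genes of other lineages had from 1 to 7 sites a list. The endothelial list had 5 sites at 4 of 30 genes (13.3%, beside 8.10% of all coding genes), median 2.38 (1.05 by the deposited fold), with none below the median of all sites. ESAM, an adhesion molecule of endothelium and stem cells, had 80 and 18 fragments, ratio 3.08 (1.83 to 5.46). EGFL7, a vascular gene that hosts a microRNA, had sites with 152 and 117 fragments in the ERG library and 42 and 34 in the Vector library, ratios of 2.51 and 2.38. The megakaryocyte list had 7 sites at 6 of 30 genes (20.0%), median 1.75 (1.16 by the deposited fold), with 3 past 2-fold, beside 13.5% of all sites. Its lowest ratio was 1.28. ANGPT1, the ligand of the receptor TIE2, had 102 and 21 fragments at its higher site, ratio 3.36 (2.09 to 5.67), and MYH9, the non-muscle myosin of platelets and other cells, 135 and 43, ratio 2.17. Single sites represented the myeloid and lymphoid lists. CD33, a myeloid surface marker, had 108 and 30 fragments at a listed start, ratio 2.49 (1.65 to 3.87), and CD2, a T cell marker, 89 and 26, ratio 2.37. In the mast cell list HDC, which makes histamine, had a pair of sites with ratios of 1.29 and 1.88.

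Counted jointly, the ETS, stem cell, megakaryocyte and endothelial lists held 32 sites at 23 of 112 genes, 12 past 2-fold and 2 below 1, with a median of 1.69. Over all sites 13.5% were past 2-fold and 16.8% below 1, and 8.10% of all coding genes had a site. The surroundings of the 32 sites had a median ratio of 1.65 and their deposited fold 1.055, the latter the same as over all sites. The lists were joined after their values were seen, and the difference from the red cell genes was not tested, with 1 library per group.

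**Figure D4:**
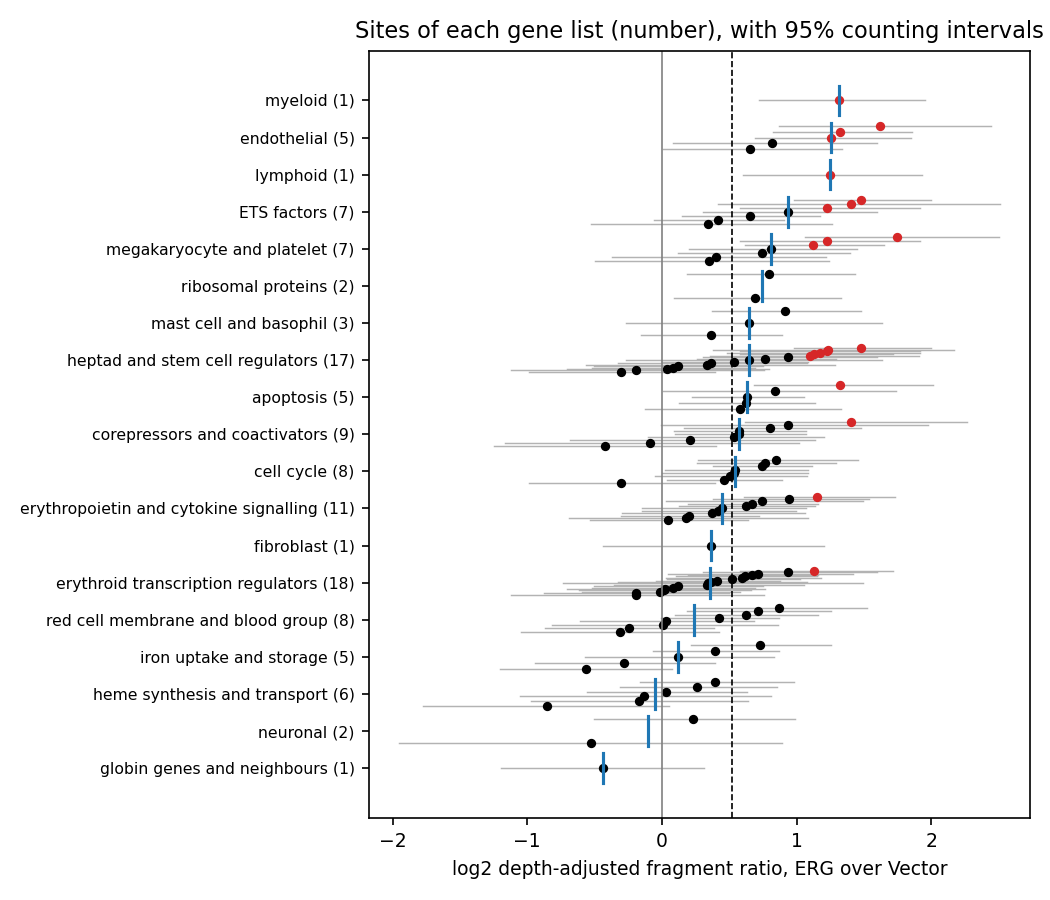
Log2 depth-adjusted fragment ratio, ERG over Vector library (x axis), of each site of each gene list (y axis, with the number of sites), with 95% counting intervals as grey bars. Red points are 2-fold or more higher, blue ticks are list medians, the solid line marks equal levels and the dashed line the median of all 2028 sites (1.43).

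None of the 18 histone deacetylase genes had a site assigned, which allows a share of up to 18.5% by the exact interval, a range that holds the 8.10% of all coding genes. Within 50 kb of the gene 5 of the 18 had a site, 27.8%, beside 16.3% of all coding genes by that rule. Within 50 kb of HDAC7 there were 3 sites, assigned to SLC48A1 and VDR, and that of VDR, the vitamin D receptor, had 68 and 40 fragments, ratio 1.18 (0.785 to 1.79). The GATA1 locus held none. Of 28 corepressors and coactivators, 8 had 9 sites (28.6% of the genes), median 1.49. EZH2, the methyltransferase of Polycomb, had 65 and 17 fragments at a site 56.4 kb before its start, ratio 2.65 (1.53 to 4.82), whereas TBL1XR1, a part of the NCOR complex, had ratios of 1.49 and 0.746. SIN3A, a scaffold for deacetylases, had 73 and 29 fragments, ratio 1.74. CDKN2C and CCND3, which inhibit and drive the G1 kinases, had 5 of the 8 cell cycle sites, with ratios from 1.38 to 1.80. Of 26 apoptosis genes, 4 had a site (15.4%), median 1.55. CASP8 had 94 and 26 fragments at a listed start, ratio 2.504 (1.61 to 4.03), and BBC3, BID and BIRC2 ran from 1.496 to 1.79.

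Lists of tissues foreign to these cells had shares that cannot be told apart from the 8.10% of all coding genes. None of 22 liver and none of 20 epithelial genes had a site, which allows up to 15.4% and 16.8% by the exact interval, while 1 of 21 fibroblast genes (FBN1, 39 and 21 fragments) and 2 of 22 neuronal genes (GRIN1 and GRIN2A) did. Of 48 ribosomal protein genes, acetylated at their ends in both libraries in 40 cases, 2 had a site. Of 12 erythroid markers, 7 had gene-end peaks in both libraries and only TFRC had a distal site. Gene-end peaks in both libraries were found at 2 of 5 megakaryocyte and 1 of 5 myeloid markers. They were at none of 5 mast cell, 5 endothelial, 4 lymphoid, 3 neuronal, 3 epithelial and 2 fibroblast markers.

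The highest ratios of all belonged to scattered sites. The top one, at MIR7849 inside SLC10A7, had 130 and 20 fragments in the ERG and Vector libraries, 4.502 (2.80 to 7.61). Sites inside LARP1B (97 and 17 fragments) and near ZMIZ1 (91 and 16), a coactivator gene, followed at 3.95 and 3.94, and sites near DEPTOR (161 and 29), JADE1 (115 and 22) and RNU5E-1 (147 and 29) at 3.84, 3.62 and 3.51. SPAG6, RBM38 and STOM, the last encoding stomatin, had neighbouring sites at 3.46, 3.23 and 3.21. The lowest ratios came from faint sites. SPIN4 had 13 and 24 fragments, 0.375 (0.175 to 0.767), PLEKHM2 22 and 37, 0.412, and RREB1 16 and 26, 0.426. All 10 lowest had 25 fragments or fewer in the ERG library, and each interval lay below 1.

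Of the 10 sites with the highest deposited score, 8 stood at genes for small nuclear RNAs, most of which are RNA parts of the spliceosome. Over the 23 sites at such genes the median ratio was 1.84, and 17 had 100 or more ERG-library fragments. The U2 array, tandem copies of the U2 gene beside CCDC200 on chromosome 17, held 13 sites, the most of any gene. Its highest summit had 1026 and 433 fragments, the maximum of all sites in both libraries, ratio 1.64 (1.47 to 1.84). The 7 sites of its longer run were a median of 6000 bp apart, had 233 to 493 fragments in the ERG library and 96 to 212 in the Vector library, and had ratios between 1.503 and 1.84. U1 genes gave the same picture, RNU1-4 with 550 and 200 fragments and RNU1-3 with 548 and 194, ratios of 1.90 and 1.96. Copies of these genes are nearly identical, so the share of reads between them is uncertain.

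Other runs of sites had ratios both like these and lower. With gaps up to 12500 bp joined, the sites formed 1845 runs, of which 1712 were single sites and 21 had 3 or more, 92 sites in all. Between 76.4 and 236.6 kb from PLS3 on chromosome X, 10 sites with no gene record reached 836 and 269 fragments and had a median ratio of 1.97. A run of 6 sites 177 kb from SHCBP1 on chromosome 16 was nearly as strong, 169 to 393 fragments in the ERG library and 164 to 356 in the Vector library, but had ratios of 0.714 to 0.970. The runs near ZNF33B (median 0.914), LOC124903767 (0.816) and the REXO1L repeats (0.641) were below 1 as well. Those of the tRNA genes near FCGR2A and of ribosomal RNA on chromosome 21 had medians of 1.18 and 1.25. The run at 5S ribosomal RNA genes 23.5 kb from RHOU, 60 to 74 against 49 to 57 fragments, had ratios of 0.7555 to 0.905. Repeated sequence can draw reads from several copies, and the sources used here do not give how such reads were mapped.

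**Figure D5:**
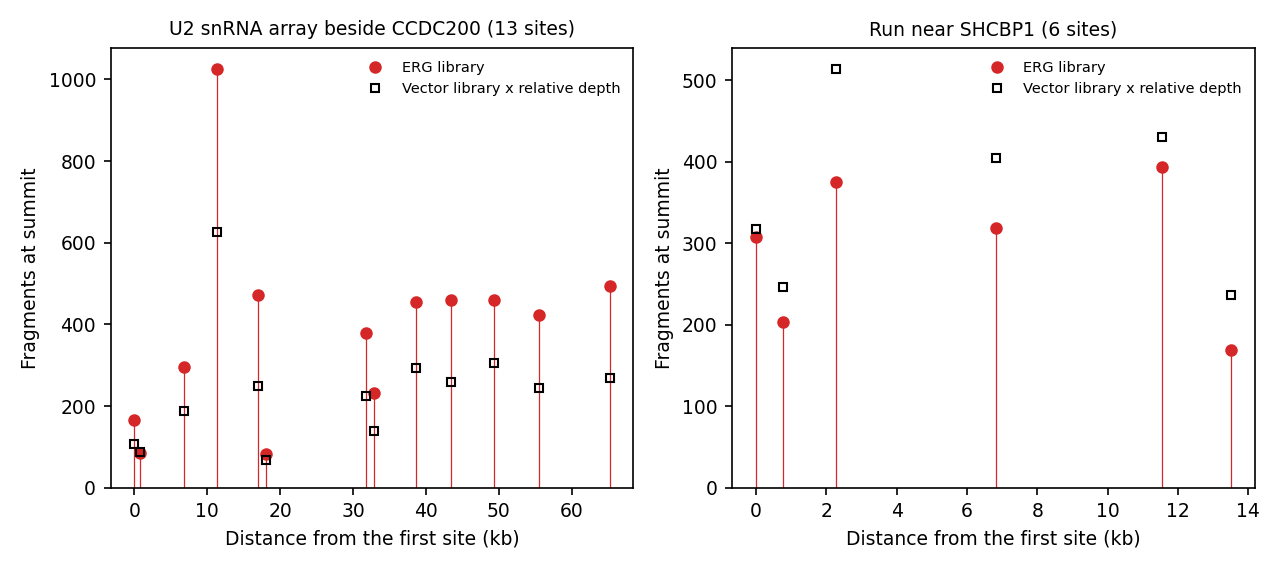
Fragments at the summit (y axes, from 0) by distance from the first site in kb (x axes) for the 13 sites of the U2 array beside CCDC200 and the 6 sites near SHCBP1. Red points are the ERG library and open squares the Vector library multiplied by the relative depth of 1.44; the red points are mostly above the squares in the U2 array and below them near SHCBP1.

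Sites at long non-coding RNAs ran from a ratio of 0.426 to 3.09, and the following strong sites at internal coding starts and non-coding genes were chosen after their values were seen. HNRNPL and HNRNPUL1, genes of RNA-binding proteins, had 311 and 292 fragments in the ERG library and 176 and 119 in the Vector library, ratios of 1.22 and 1.70. EPC1, of the NuA4 acetyltransferase complex, had 224 and 80, ratio 1.94. Among non-coding genes, MALAT1 had 199 and 81 fragments, ratio 1.70, and CHASERR 173 and 89, ratio 1.35. MIR17HG, in the ground between coding genes, 49.3 kb from GPC5, had a ratio of 1.497 (1.23 to 1.83), and the let-7i and miR-142 sites 1.98 and 1.41. Higher than these was the site beside MIR130A, a microRNA of blood stem cells, with 99 and 24 fragments and a ratio of 2.86 (1.81 to 4.67). In all, 33 microRNA hairpins belonged to 26 sites.

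Start regions that lay whole inside the sites were close to those of gene-end peaks in base composition and in most motifs shown. RefSeq windows of 300 bases, 250 before and 50 after a listed start, numbered 375 in the sites, 3531 in shared gene-end peaks and 34943 in all. Their median GC content was 69.7%, 68.3% and 58.7%. The ETS core GGAAG, on either strand, was found in 78.9% (74.4 to 82.9), 81.6% and 71.8% of the windows. The longer ETS motif ACCGGAAG, which holds that core, was found in 2.67% (1.29 to 4.85), 5.47% (4.74 to 6.27) and 2.16%. The lower share in the sites rests on 10 windows. Its interval overlaps that of the gene-end peaks only narrowly, and the difference was not tested. The 375 windows came from 327 genes in 289 sites and are not independent. The GATA motif AGATAA was found in 3.73% (2.06 to 6.19), 2.97% and 10.4%, and the RUNX motif TGTGGT in 8.53%, 7.22% and 13.1%. A match is a description of the letters, and the 1151 sites with no record were not part of this count.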

How the data were processed

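H3K27ac was measured by chromatin immunoprecipitation and sequencing in 1 library per group, as the labels assign them. Per the submitters' processing notes the tools were Bowtie2, MACS2 and deepTools on hg38. Versions, settings, the use of an input library and the treatment of duplicate reads are not stated in the labels or files. The deposited files are peak lists of single libraries, not pooled. The authors' score, fold enrichment at the summit, −log10 p-value, −log10 q-value and summit position are the peak caller's own values, as deposited. The lowest deposited −log10 q-value was 1.31 and 1.315, a threshold of 0.05.

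Everything else was computed with Python 3.11.15, NumPy 2.4.6, pandas 2.3.3, SciPy 1.17.1 and Matplotlib 3.10.9. MACS2 writes the fold as summit fragments plus 1 over background plus 1, and p as a Poisson tail. Solving both gave whole fragments for 100% of peaks, with a relative error of at most 0.0001. On simulated data 100% of 2000 peaks of each kind were recovered, which tests the calculation and not whether the formulas hold for the lists. Total reads are not part of a peak list, so relative depth is the ratio of the lowest backgrounds.

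Gene ends came from the RefSeq table of GRCh38.p14 (20033 protein-coding genes, without strand or exons), and listed starts, microRNAs and start windows from its sequence tables, which cover 15842 of these genes. Sites were assigned to the coding gene that holds them, otherwise to the nearest. All 535 genes of 22 lists matched. Named were the 10 sites with the highest score, the 10 highest and 10 lowest ratios with 30 or more fragments over both libraries, up to 3 strongest sites per list, the genes and runs with most sites, every erythroid regulator and globin site, and the ERG, HDAC7 and GATA1 loci. Others named, such as further list sites, RPN1, internal starts, and microRNA and long non-coding genes, were chosen after their values were seen. The members and lists themselves were chosen with earlier results of these data known. Shares have exact binomial 95% intervals and fragment ratios exact conditional ones. With 1 library per group no test between groups and no p-value is given. Alternatives changed the overlap, distances, score limit, depth scale, fragment minimum, fold and list assignment. Motifs at summits, planned, were not run, since no genome was used. They were counted instead in RefSeq start windows, a choice made after the sites were known.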

Additional observations from a re-analysis of the deposited data

How the results depend on the processing

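The number of sites stayed within 1.5 times under 6 of 7 alternatives and was 781 when only the higher-scoring 50% of either list was used. The share of shared peaks that were distal was 22.8% beyond 2.5 kb of gene ends, 20.2% beyond 5 kb, 23.7% within 100 kb, 18.3% in the upper 50% by score, 21.9% with the ERG list as short as the Vector list and 19.1% with the ends of every gene record. The median ratio was 0.970 on the scale of gene-end peaks, 2.07 without depth scaling, 1.055 by deposited fold and 1.21 where both local backgrounds were at most 2 times the genome level. In that order, 20, 1097, 9 and 4 sites were 2-fold or more higher and 109, 0, 0 and 2 lower. At 1.5-fold the counts were 892 and 66. Leaving out the 9 runs of 5 or more sites, an alternative chosen after seeing the data, kept the median and both counts near the reported ones. The median width ratio was 1.45 in the upper 50% by score, the median distance to a gene end 20.6 kb beyond 2.5 kb, and 7 runs of 3 or more sites remained at a joining distance of 5 kb. The deposited fold reversed 3 named sites: FLI1 (0.938), ERG (0.961) and ZNF469 (1.09).

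Where a site within 50 kb of a gene counted, which held for 16.3% of all coding genes, the listed genes with a site that moved past 1.5 times numbered 5 for globin, 8 for heme, 6 for iron, 9 for myeloid, 7 for endothelial, 3 for lymphoid, 5 for histone deacetylase, 11 for apoptosis, 10 for ribosomal protein and 1 for liver genes. In the upper 50% by score they were 7 for erythroid regulators, 3 for membrane, 3 for cytokine, 2 for stem cell, 1 for megakaryocyte, 1 for mast cell, 4 for ETS, 2 for corepressor, 1 for apoptosis and 1 for neuronal genes, and 0 for globin, heme, endothelial, lymphoid and fibroblast genes. Beyond 2.5 kb of gene ends 2 endothelial genes had a site. Of 76 list medians under alternatives, 60 stayed inside an order-statistic interval of the list's own sites.

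No paired analysis was possible because each group holds 1 library. Depth limits the faint sites most, where 10 to 30 fragments leave intervals over 2-fold wide, and the missing replicate limits every comparison.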
